A study of Rattus norvegicus with 9 samples.

Results

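The products of the 10 genes described here give tubular epithelium its filaments and contacts, or mark tubule cells that lose their mature state. Their RNA was measured in kidneys of rats, some of which had received CMS (colistin methanesulfonate sodium), which the body converts to colistin, a polymyxin antibiotic. The genes were Krt8, Krt18, Krt19, Krt20, Vim, Cd44, Cd24, Cdh6, Cdh1 and Sox9, and every probe set annotated to exactly 1 of them was taken. That gave 11 probe sets for 9 of the 10 genes, out of 20826 single-gene probe sets for 14217 genes. Sox9 had no such probe set and was not analysed here. Of the 9 genes, 7 passed a minimum mean log2 signal of 5 over all arrays, among 10337 genes that did so, while Krt20 and Cdh6 lay under it and are given from a fit of every probe set.

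The study dosed Sprague-Dawley rats, an outbred laboratory stock bought at 8 weeks of age and acclimated for 1 week, by daily intraperitoneal injection for 7 days. Each injection held CMS diluted in saline, at 0 (vehicle), 25 (CMS25) or 50 mg/kg (CMS50), and each dose had 3 rats with 1 array per rat. Per the labels, vehicle kidneys had no lesion, CMS25 kidneys had basophilic and dilated tubules, and CMS50 kidneys had necrosis, tubular degeneration or dilatation and casts. RNA came from the whole right kidney, and the values are deposited log2 signals of an Affymetrix rat array, so a difference of 1 is a 2-fold change. Group values below are means ± SD with n = 3, SE is the standard error of a fitted log2 change, and a gene is called when its adjusted p from limma is under 0.05. In such bulk RNA, more or fewer cells of a type and more or less RNA per cell cannot be told apart.

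Keratins are the intermediate filament proteins of epithelia, and they work as obligate pairs of a type II and a type I chain. KRT8 pairs with KRT18 in simple epithelia such as kidney tubules, while KRT19 and KRT20 are further type I chains of ducts and urothelium. Vimentin is the intermediate filament protein of mesenchymal, endothelial and blood cells, and proximal tubule cells acquire it when they dedifferentiate after injury. E-cadherin (Cdh1) and kidney cadherin (Cdh6) join neighbouring cells, CD44 is a hyaluronan receptor, CD24 is a small surface glycoprotein of epithelial and progenitor cells, and SOX9 is a transcription factor of nephron development that returns in regenerating tubules.

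At 50 mg/kg the kidneys carried more Krt8, Vim and Cd44 RNA than vehicle kidneys, by 2.87-fold, 3.67-fold and 3.19-fold. Cdh6 was also higher, from a dim signal. Krt18, Krt19, Krt20, Cdh1 and Cd24 were not called against vehicle at either dose. In the fit of genes, 3 of the 7 members that passed the minimum were called higher and 0 lower in CMS50 against vehicle, beside 19.6% of all tested genes called higher, 11.4% called lower and 31.1% called in either direction. No member was called at 25 mg/kg, where 0% of all genes were called.

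The promoters of Krt8, Krt18 and Vim are shown because Krt8 and Vim rose at 50 mg/kg and because Krt18, the partner of Krt8, lies close to it on chromosome 7. Each line gives bases 250 to 76 before the annotated start, on the gene's own strand, from RefSeq's promoter table for GRCr8. The bases nearest the start are not printed. Capitals mark matches on either strand to TATAAA, the letters of the TATA box, and to the GC box GGGCGG, which SP1 binds.
Krt8, chr7:135010415-135010589, minus strand: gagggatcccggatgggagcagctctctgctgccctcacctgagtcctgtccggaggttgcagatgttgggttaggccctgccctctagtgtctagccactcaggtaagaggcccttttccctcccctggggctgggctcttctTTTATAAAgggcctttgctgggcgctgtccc
Krt18, chr7:135035918-135036092, plus strand: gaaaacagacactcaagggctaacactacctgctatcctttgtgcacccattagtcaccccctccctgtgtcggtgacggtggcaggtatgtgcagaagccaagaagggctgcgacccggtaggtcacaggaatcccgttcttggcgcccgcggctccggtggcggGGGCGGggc
Vim, chr17:81577011-81577185, plus strand: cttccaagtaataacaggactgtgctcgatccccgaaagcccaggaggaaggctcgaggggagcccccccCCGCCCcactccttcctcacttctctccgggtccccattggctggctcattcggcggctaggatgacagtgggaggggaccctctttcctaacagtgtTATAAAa
TATAAA stood in the 250 bases before the start in Krt8, Krt20 and Vim, 3 of the 7 members in the table, and in 12.93% of 33469 rat promoters. In Krt8 its matches on the 2 strands overlap, at bases 106 to 101 and 104 to 99 before the annotated start. The match in Vim lay at bases 82 to 77 and that in Krt20 at bases 49 to 44. Whether any of these matches places a start was not tested. GGGCGG stood in Krt18, Vim, Cd24 and Cdh6, 4 of 7, and in 30.47% of all promoters. CACCTG, an E-box that Snail and Zeb repressors bind, stood in Krt8 and Cd24 and in 15.9% of all. The AP-1 core TGANTCA (6.34% of all) and the SOX core ACAATG (11.08%) were found in 0 of 7. Cd44 and Cdh6 also rose at 50 mg/kg, and their promoters were searched but are not printed. Cd44 held none of these motifs. A match describes letters in this window, and no promoter was read for Krt19, Cdh1 or Sox9.

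Krt8, the type II partner in simple epithelia, had log2 signals of 9.45, 9.37 and 9.43 in vehicle replicates 1, 2 and 3, of 9.66, 9.63 and 9.87 in CMS25, and of 11.31, 11.04 and 10.46 in CMS50. Each CMS50 array lay above each CMS25 array, and each CMS25 array above each vehicle array. The group means were 9.42 ± 0.040, 9.72 ± 0.13 and 10.94 ± 0.43. The rise at 50 mg/kg was 1.52 on the log2 scale (SE 0.19, adjusted p = 0.00195), in 3 of 3 rats. In CMS50 against vehicle, 30.6% of all genes had arrays that did not overlap and were higher. The change at 25 mg/kg was 0.30 (95% interval -0.11 to 0.72, adjusted p = 0.873) and did not pass the test. For CMS25 against vehicle, 4.45% of all genes were higher without overlap. CMS50 exceeded CMS25 by 1.22 (SE 0.19, adjusted p = 0.00306).

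Krt18, the type I partner of Krt8, had vehicle signals of 7.35, 7.49 and 7.47. Its CMS25 signals were 7.44, 8.03 and 7.13, and its CMS50 signals 7.97, 8.17 and 7.70. All CMS50 arrays lay above all vehicle arrays, but CMS25 replicate 2 lay above CMS50 replicates 1 and 3. The difference between CMS50 and vehicle was 0.51 (SE 0.21, 95% interval 0.033 to 0.98, adjusted p = 0.0960) and missed the threshold. It passed with array weights (adjusted p = 0.0300), with only the 2 groups compared (adjusted p = 0.0267) and without CMS25 replicate 2 (adjusted p = 0.0278). Over all alternatives its adjusted p ran from 0.0267 to 0.266.

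Within each array, the log2 signal of Krt8 minus that of Krt18 was 2.10, 1.89 and 1.95 in vehicle, 2.23, 1.59 and 2.74 in CMS25, and 3.34, 2.87 and 2.77 in CMS50. The absolute difference between probe sets has no meaning, and only its shift between doses is read. The CMS50 arrays did not overlap with the vehicle arrays, with a mean shift of 1.01 and an exact permutation p of 0.1 (two-sided). As 3 rats against 3 can give none smaller, that test cannot decide whether the partners changed unequally. CMS25 shifted by 0.21 (exact permutation p = 0.7). This pairing was chosen after the values were seen.

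Krt19, a type I keratin of ducts, read 8.13, 8.32 and 6.85 in vehicle, 7.32, 8.03 and 8.01 in CMS25, and 6.58, 7.86 and 8.00 in CMS50. Vehicle replicate 3 and CMS50 replicate 1 were the lowest arrays, and the 3 doses overlapped. The CMS50 change of -0.29 had a wide 95% interval, from -1.32 to 0.74 (adjusted p = 0.664). Without CMS50 replicate 1 the change was 0.16.

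Krt20, a type I keratin of urothelium and gut epithelium, was dim on all 9 arrays, between 3.79 and 4.24. Its group means were 4.06 ± 0.18 in vehicle, 3.95 ± 0.045 in CMS25 and 3.85 ± 0.096 in CMS50. The CMS50 difference was -0.21 (SE 0.11, adjusted p = 0.214 in the fit of every probe set). Of the 11 urothelial genes listed for comparison, 9 were on the array and only Krt7 passed the minimum, with the uroplakins Upk1a, Upk1b, Upk2 and Upk3a under it.

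Vim, the vimentin gene, was even among vehicle rats at 8.84, 8.76 and 8.87. It read 8.97, 8.52 and 8.25 in CMS25 and 10.88, 11.48 and 9.73 in CMS50. Every CMS50 array was above the other 6 arrays, while CMS25 and vehicle overlapped. Its rise of 1.87 at 50 mg/kg (SE 0.37, adjusted p = 0.00722) took the mean from 8.82 ± 0.054 to 10.70 ± 0.89. CMS50 exceeded CMS25 by 2.12 (SE 0.37, adjusted p = 0.00484), and CMS25 differed from vehicle by -0.24 (95% interval -1.08 to 0.60, adjusted p = 0.959). CMS50 replicate 2 was the highest array for Vim and replicate 3 the lowest of its group.

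**Figure D1:**
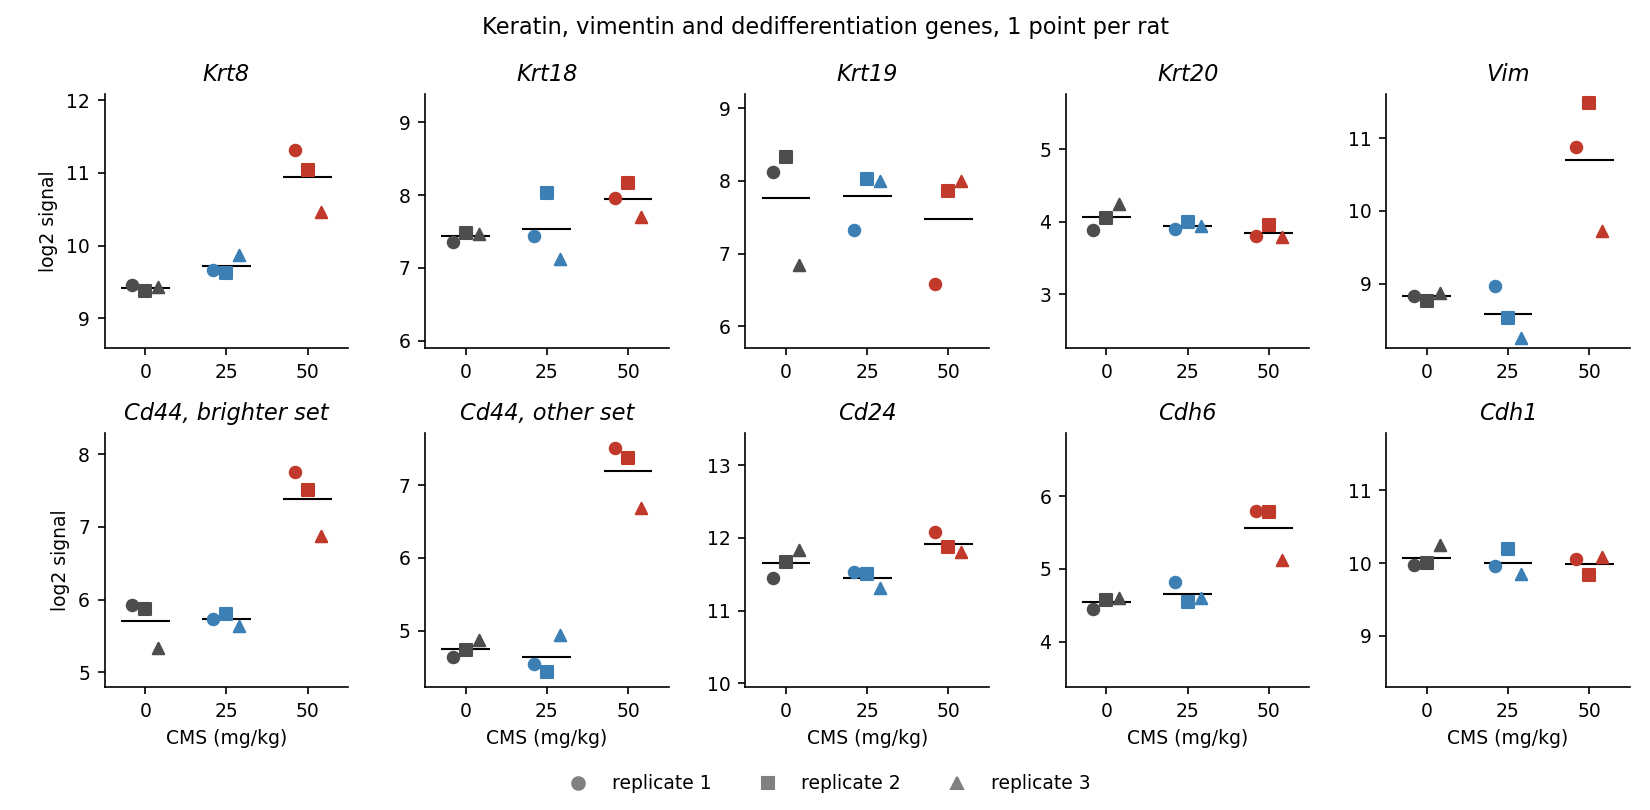
Log2 signal (vertical axis, 3.5 units in each panel) against CMS dose in mg/kg for 10 probe sets of the 9 measured genes, with 1 point per rat, shapes for replicate numbers and lines for group means. Krt8, Vim, Cd44 and Cdh6 separate at 50 mg/kg, with CMS50 replicate 3 lowest of its group in each, while Krt19 scatters at every dose and Cdh1 stays near 10.

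Cdh1, the cadherin of epithelial adherens junctions, lay between 9.98 and 10.24 in vehicle and read 9.96, 10.19 and 9.85 in CMS25, and 10.05, 9.84 and 10.08 in CMS50. The doses overlapped throughout. The difference between CMS50 and vehicle was -0.08 with a 95% interval from -0.36 to 0.19 (adjusted p = 0.634), and that between CMS25 and vehicle -0.07, from -0.35 to 0.20 (adjusted p = 0.966). Its other probe set was dim, with group means of 2.43, 2.43 and 2.46, and gives no usable second reading.

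Cdh6, kidney cadherin, is a type II cadherin of the developing proximal tubule. Its probe set read 4.45, 4.57 and 4.61 in vehicle, 4.81, 4.54 and 4.60 in CMS25, and 5.79, 5.78 and 5.12 in CMS50. All CMS50 arrays lay above all others, and CMS25 overlapped with vehicle. In the fit of every probe set it was higher by 1.02 at 50 mg/kg (SE 0.17, adjusted p = 0.00470), and CMS50 exceeded CMS25 by 0.91 (SE 0.17, adjusted p = 0.00770). That fit called 3933 of 20826 probe sets in CMS50 minus vehicle, in either direction. Its mean over the 9 arrays was 4.92, just under the minimum. Its group mean passed 5 only in CMS50, with 4.54 in vehicle and 4.65 in CMS25, so the fold of 2.03 is approximate.

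Cd44 had a pair of probe sets. The one with the higher mean read 5.93, 5.87 and 5.33 in vehicle, 5.73, 5.81 and 5.64 in CMS25, and 7.76, 7.51 and 6.88 in CMS50. The other read 4.64, 4.73 and 4.88, then 4.54, 4.43 and 4.94, then 7.51, 7.38 and 6.68. In each, CMS50 stood clear of both other doses, which overlapped. The first set rose by 1.67 (SE 0.23, adjusted p = 0.00244), and in the fit of every probe set the other rose by 2.44 (SE 0.21, adjusted p = 0.000471). That other set passed 5 only through CMS50, with means of 4.75 in vehicle and 4.64 in CMS25, so the size of its rise is approximate. The difference between these changes was not tested. CMS25 differed from vehicle by 0.02 (95% interval -0.49 to 0.52, adjusted p = 0.995) in the first set.

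Cd24, a glycoprotein of epithelial cell surfaces, read 11.45, 11.66 and 11.83 in vehicle, 11.53, 11.50 and 11.31 in CMS25, and 12.08, 11.87 and 11.81 in CMS50. CMS50 and vehicle overlapped, and CMS50 lay above CMS25 on every array. CMS50 exceeded CMS25 by 0.47 (SE 0.12, adjusted p = 0.0197), which lost its call without CMS25 replicate 3 (adjusted p = 0.0650), without CMS50 replicate 1 (adjusted p = 0.0722) and without CMS50 replicate 2 (adjusted p = 0.0511). Against vehicle neither dose passed, with 0.27 for CMS50 (95% interval -0.0031 to 0.55, adjusted p = 0.119) and -0.20 for CMS25 (adjusted p = 0.872).

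In CMS50 minus CMS25, 4 of 7 members were called higher, Krt8, Vim, Cd44 and Cd24, beside 20.8% of all genes called higher, 9.43% called lower and 30.3% called in either direction. All 3 CMS50 arrays lay above all CMS25 arrays in these 4 members, as they did in 30.4% of all genes. These comparisons share the CMS50 arrays, or the vehicle arrays, and are not independent. For CMS25 minus vehicle, limma called 0 of 7 members and 0 of 10337 genes, and 0 genes also with a trended, robust variance. Without adjustment, 604 genes (5.84%) had a p under 0.05 and 0 of the 7 members did, the smallest being 0.132 for Cd24.

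**Figure D2:**
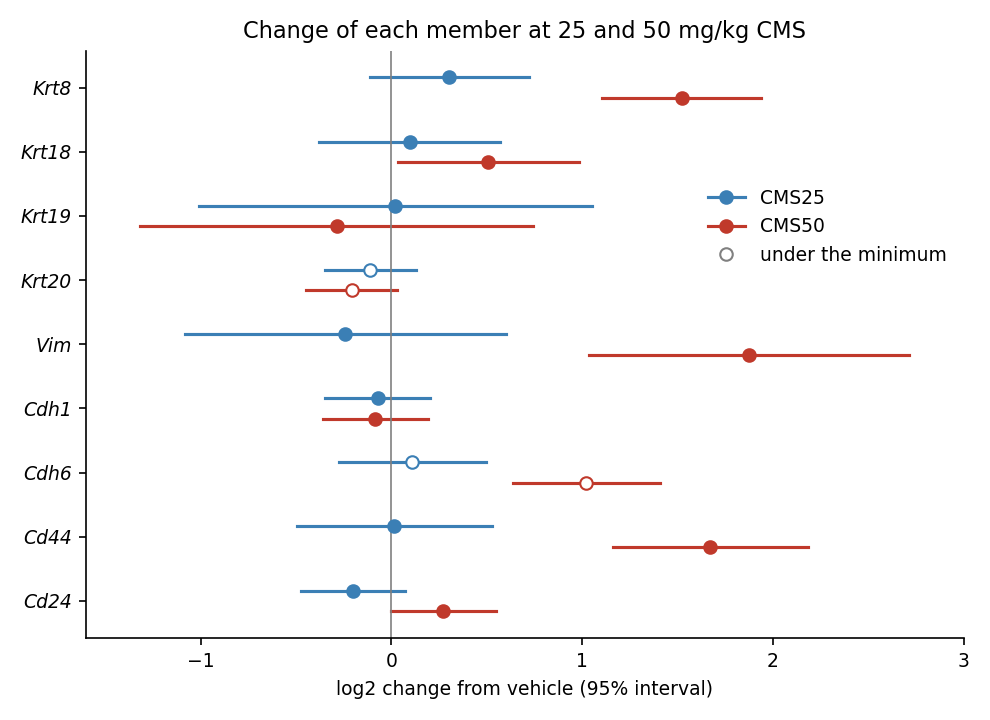
Log2 change from vehicle (horizontal axis) with its 95% interval for each measured member at CMS25 and CMS50, filled points from the fit of genes and open points from the fit of every probe set. At CMS50 the intervals of Krt8, Vim, Cd44 and Cdh6 lie above 0.6, and at CMS25 each of the 9 intervals includes 0.

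Within the CMS50 group the rats were unequal, and replicate 3 was the lowest for Krt8, Krt18, Vim, Cd44, Cd24 and Cdh6. Its distance from the vehicle mean was 59.6% of the mean distance of replicates 1 and 2 for Krt8, 60.8% for Cd44 and 38.4% for Vim. Without it, Krt8, Vim and Cd44 remained called, at 1.76, 2.36 and 1.92. Without CMS50 replicate 2 the Vim change was 1.48. The 3 calls held under all 19 alternatives, with adjusted p at most 0.00985 for Krt8, 0.0322 for Vim and 0.0110 for Cd44.

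Other filament genes moved in both directions at 50 mg/kg. Of 18 other keratins listed, 12 were on the array and 3 passed the minimum, Krt7, Krt10 and Krt71, with changes of -0.14, -0.38 and -0.12, and 0 were called. Of 13 other intermediate filament and linker genes, 7 rose and 3 fell, with a median change of 0.55 beside 0.05 over all genes. The nuclear lamina gene Lmnb1 rose by 1.32 (SE 0.20, adjusted p = 0.00304), and the plakins Ppl and Plec, which tie filaments to junctions, rose by 1.00 and 0.88. The neurofilament gene Nefm fell by 1.04, a call lost without vehicle replicate 1 or 3 or CMS50 replicate 1 or 2 (adjusted p up to 0.0803). The 3 falls of this list became 0 or 1 without any 1 of the vehicle replicates, CMS50 replicate 1 or CMS50 replicate 2.

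Among 8 desmosome genes, whose junctions anchor keratin filaments, 2 rose and 1 fell (median 0.07), shares near the 19.6% and 11.4% of all genes. The desmosomal cadherin Dsg2 rose by 1.26 (SE 0.25, adjusted p = 0.00762) and Perp by 0.29, the latter lost without any 1 of the vehicle replicates, CMS50 replicate 1 or CMS50 replicate 2. The plakophilin Pkp4 fell by 0.44, a call lost without vehicle replicate 2 (adjusted p = 0.0508). Of 14 other cadherin and adherens junction genes, 7 rose and 0 fell (median 0.33). Nectin2, an adhesion molecule of adherens junctions, rose by 1.17 (SE 0.21, adjusted p = 0.00489) and Cdh16, the kidney-specific cadherin, by 0.43 (adjusted p = 0.0110). Vcl rose by 0.49 (adjusted p = 0.0389) and the cadherin Cdh2 by 0.43 (adjusted p = 0.0264). Both of these calls were lost without any 1 of the vehicle replicates or without CMS50 replicate 2. The Cdh2 call was also lost without CMS50 replicate 3. Vcl changed by 0.19 (adjusted p = 0.211) when its probe sets were averaged. Its call was also lost with only the 2 groups compared, and without CMS25 replicate 1 or 2 or CMS50 replicate 1. Only 2 or 3 of these 14 were called without any 1 of the vehicle replicates, CMS50 replicate 1 or CMS50 replicate 2. The mesenchymal cadherin Cdh11 changed by 1.05 with a wide interval (-0.12 to 2.23, adjusted p = 0.153).

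Around CD44, 5 of 8 measured ligands and partners rose and 0 fell (median 0.49). Spp1 (osteopontin), a secreted ligand of CD44, rose by 3.65 (SE 0.57, adjusted p = 0.00333), and the hyaluronidase Hyal2 by 0.52 (adjusted p = 0.00366). Msn (moesin), which links CD44 to actin, rose by 0.55, but by 0.19 (adjusted p = 0.280) when its probe sets were averaged. The hyaluronan synthase Has2 was under the minimum.

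Of 11 measured SOX9 partners and nephron developmental factors, 3 rose and 1 fell (median -0.05), or 2 fell without vehicle replicate 1. These shares, too, lie near the 19.6% and 11.4% of all genes. Sox4, a relative of SOX9, rose by 1.15 (SE 0.21, adjusted p = 0.00519) and Pax8, a factor of the nephron lineage, by 0.76 (adjusted p = 0.00684). Bmp7, a growth factor of nephron progenitors, rose by 0.53, and the developmental factor Lhx1 fell by 0.96 (adjusted p = 0.00597). The Notch ligand Jag1 and the target Hes1 changed by -0.05 and -0.14 and were not called.

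Of 11 genes of epithelial-mesenchymal transition (EMT), 4 rose and 0 fell (median 0.19). The growth factor Tgfb2 rose by 2.41 (SE 0.48, adjusted p = 0.00719), the matrix protein Fn1 by 2.04 and S100a4 by 0.71. The repressor Zeb1 rose by 0.44 (adjusted p = 0.0302), a call lost without any 1 of the vehicle replicates, CMS50 replicate 1 or CMS50 replicate 2 (adjusted p up to 0.100). Snai1, a repressor of Cdh1, was dim and changed by 0.10 (adjusted p = 0.610). Of 19 other genes of injured tubules, 14 rose and 1 fell (median 1.42), the rises including Havcr1, the kidney injury molecule, by 6.32 from a dim vehicle mean of 4.83. The fall was lost without any 1 of the vehicle replicates, CMS50 replicate 1 or CMS50 replicate 2. These lists were chosen with results of these arrays known, and their counts are descriptions. Spp1, Des, Nes and Krt7 each stand in another list as well, so the list counts are not independent.

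**Figure D3:**
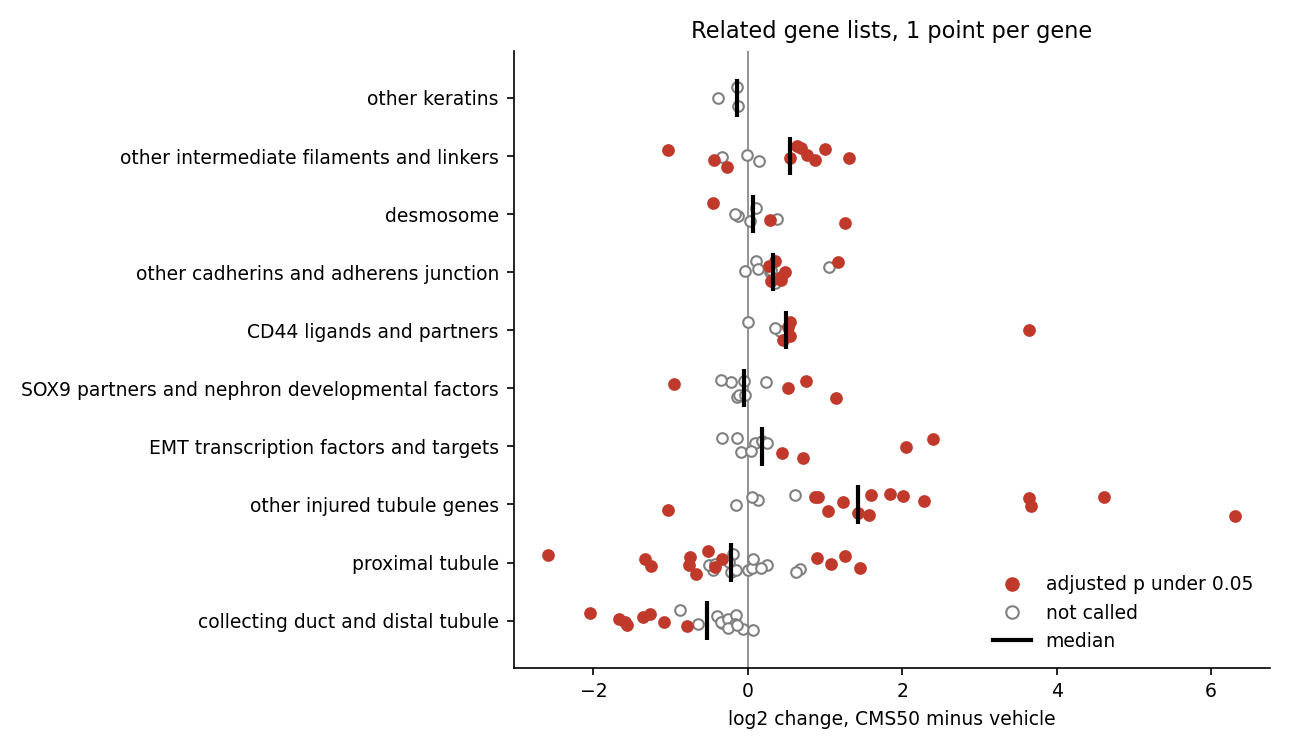
Log2 change at CMS50 against vehicle (horizontal axis) for each measured gene of 10 related lists, filled where the adjusted p was under 0.05, with the list median as a bar. The medians run from -0.53 for collecting duct and distal tubule genes to 1.42 for other injured tubule genes, and those of other keratins and desmosome genes lie near 0.

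Some members are also made by cells other than tubule cells, and markers of those cells moved at 50 mg/kg. Leukocyte markers numbered 21 on the array and 10 above the minimum, of which 9 rose and 0 fell. Their mean log2 signal ran from 6.38 to 6.53 in vehicle, 6.18 to 6.68 in CMS25 and 7.51 to 8.03 in CMS50, with changes of 2.74 for the macrophage gene Mrc1, whose vehicle mean of 4.29 was dim, and 1.60 for Lyz2. Itgam, Cd163, Cd3d, Cd3g, Cd4, Cd8a, Ms4a1, Cd79b, Nkg7, S100a8 and S100a9 were under the minimum. Genes dim in vehicle, such as Mrc1, could pass the minimum through CMS50, which favours rises in this count. The part of leukocytes in the rises of Vim and Cd44 was not tested.

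Of 11 measured fibroblast and pericyte markers, 7 rose and 0 fell, among them the collagen Col3a1 by 2.10 and the proteoglycan Dcn by 1.66. The Col3a1 call was lost without vehicle replicate 2 or 3 or CMS50 replicate 1 or 2 (adjusted p up to 0.0766). The count of fibroblast and pericyte rises was 1 to 3 without any 1 of the vehicle replicates, CMS50 replicate 1 or CMS50 replicate 2. The mean signal of this list ran from 6.83 to 6.92 in vehicle, 6.36 to 7.14 in CMS25 and 7.35 to 8.28 in CMS50, and Lum, Postn, Thy1 and Fap were under the minimum. Replicate 2 was the highest CMS50 array for Vim and Krt18, and for the fibroblast, leukocyte, injured tubule, EMT and proliferation lists. It was also the highest for the endothelial, other cadherin and CD44 partner lists. Replicate 1 was the highest for Krt8, Cd44, Cd24 and Cdh6. Within CMS25, replicate 1 was the highest and replicate 3 the lowest for Vim and for the fibroblast and leukocyte lists. The same held for the endothelial, other keratin, other cadherin, EMT and injured tubule lists. Within vehicle, replicate 3 was the highest for Vim (8.87) but the lowest for the leukocyte list (6.38), and replicate 1 was the highest for the fibroblast list (6.92). The part of fibroblasts in the rise of Vim was not tested. Endothelial genes, another source of vimentin, had 0 rises and 3 falls among 9. The falls ran from 2 to 5 when single arrays were left out, with 5 without CMS25 replicate 3. Of these falls, Emcn at -0.49 lost its call without any 1 of the vehicle or CMS50 replicates (adjusted p up to 0.0993). Podocyte and parietal genes had 1 rise, Cldn1, and 2 falls among 9, or 5 falls without vehicle replicate 2 and 1 without vehicle replicate 1 or 3 or CMS50 replicate 1 or 2.

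Collecting duct and distal tubule, which carry Krt8, Krt18, Krt19 and Cdh1 in healthy kidney, went the other way from Krt8. Of 20 collecting duct and distal tubule genes, 0 rose and 8 fell at 50 mg/kg, led by Egf at -2.04 and the anion exchanger Slc4a1 at -1.67. Without vehicle replicate 1 or 3 or CMS50 replicate 1 or 2, 3 to 5 of them were called lower. Their mean signal was 9.69 to 9.97 in vehicle, 9.42 to 10.21 in CMS25 and 8.63 to 9.42 in CMS50. CMS25 replicate 2, with the highest Krt18, Krt19 and Cdh1 signals of its group, was also the highest of the 9 arrays for this list. Its Krt8 signal, 9.63, was the lowest of its group. The part of these segments in the members' signals was not tested. Of 27 proximal tubule genes, 4 rose and 9 fell, with a mean signal of 11.24 to 11.47 in vehicle, 11.41 to 11.68 in CMS25 and 11.11 to 11.36 in CMS50. The falls numbered 3 to 5 without vehicle replicate 1 or 3 or CMS50 replicate 1 or 2. Of 15 proliferation genes, 13 rose and 0 fell, with Mki67 at 2.34 from a dim vehicle mean of 4.74. Ccna2, Bub1 and Aurkb were under the minimum. Genes dim in vehicle could pass it through CMS50, which favours rises in this count. With a minimum of 6, 4 of 5 genes rose.

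The readings of RNA quality were also higher at 50 mg/kg in these arrays. The 3′ signal minus the 5′ signal of the beta-actin control, a log2 measure of RNA breakdown or incomplete copying, was 2.98 ± 0.16 in vehicle, 3.17 ± 0.12 in CMS25 and 3.58 ± 0.085 in CMS50, and for GAPDH 0.54 ± 0.029, 0.70 ± 0.21 and 0.82 ± 0.062. In both, all CMS50 arrays lay above the vehicle arrays, with an exact permutation p of 0.1 (two-sided). With 3 arrays against 3 that test can give none smaller, so it cannot decide whether RNA quality differed. CMS25 overlapped with vehicle (exact permutation p of 0.3 and 0.4). The part of RNA quality in the rises of Krt8, Vim, Cd44 and Cdh6 was not tested. Correlations between arrays over the tested genes ran from 0.916 to 0.989, and kidney identity was plain, with the proximal tubule genes Slc34a1 and Lrp2 at vehicle means of 13.82 and 13.33.

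**Figure D4:**
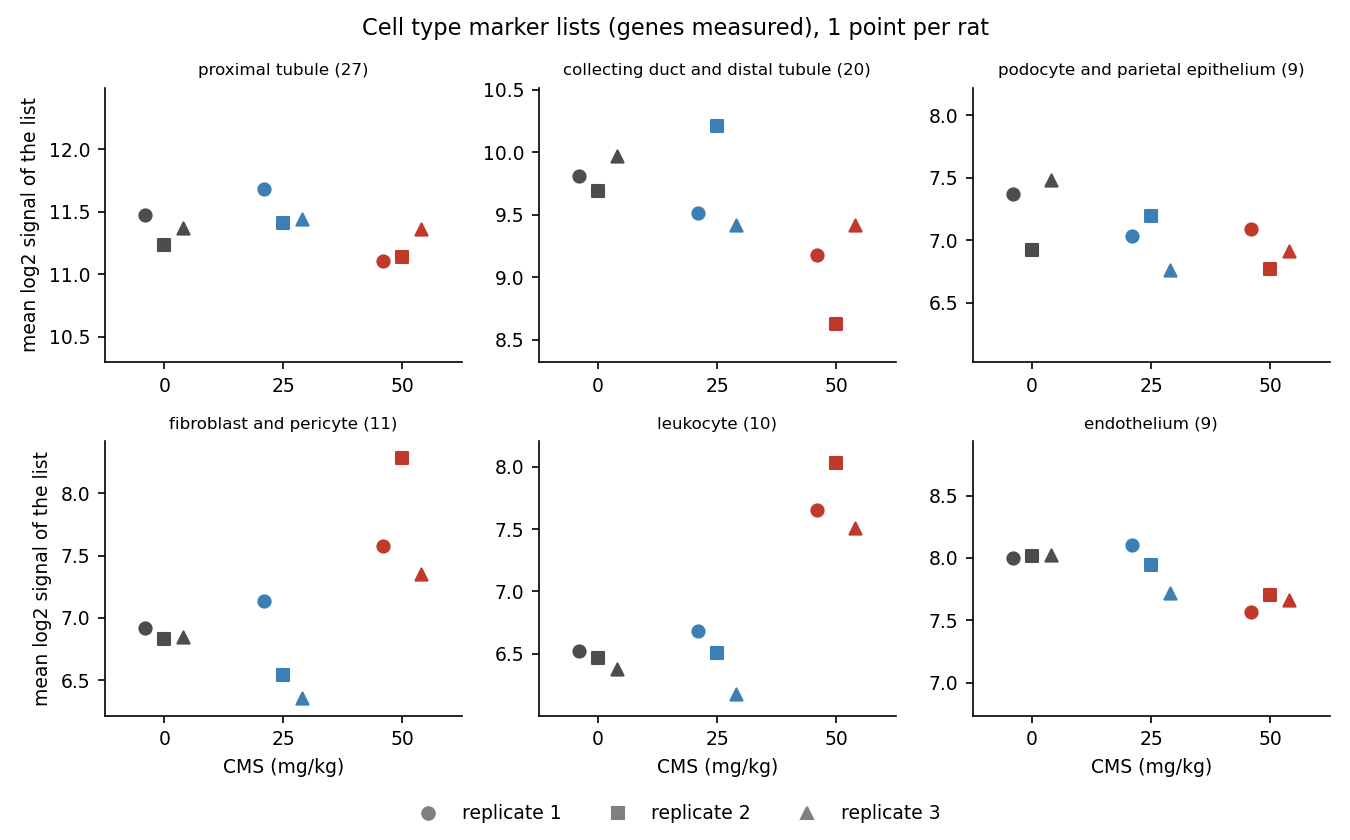
Mean log2 signal of the measured genes of 6 cell type lists (vertical axis, 2.2 units in each panel) against CMS dose in mg/kg, with 1 point per rat and shapes for replicate numbers. The leukocyte and fibroblast lists are higher on every CMS50 array than on any other, and the collecting duct and distal tubule list is lowest in CMS50 replicate 2.

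Genes with profiles most like the members were found as the smallest root mean square difference over the 9 arrays, after each profile was centred on its vehicle mean. For Krt8 these were the beta-tubulin gene Tubb6 (0.18 log2) and Marcksl1, a regulator of actin (0.20), where Krt8 itself departed from its vehicle mean by 0.92. For Cd44 they were Marcksl1 (0.16) and the kinetochore gene Cenpf (0.17), beside a departure of 1.00. For Vim they were the matrix gene Mgp (0.19) and the actin cross-linker Actn1 (0.21), beside 1.18. Mgp and Actn1 changed by 1.84 and 2.00 at CMS50, and by -0.30 and -0.29 at CMS25. For Krt18 they were Boc (0.11) and Stard5 (0.13), beside 0.39. No gene came close to Krt19, whose nearest was Rdh5 at 0.37 beside its own 0.58. The nearest to Cd24 were Asxl1 and Thoc6 and to Cdh1 Arhgef16 and Zfyve9, all within 0.061, where members and neighbours alike moved little.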

How the data were processed

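The authors deposited log2 signals of 31099 probe sets on 9 Affymetrix rat expression arrays, made with RMA in Affymetrix Expression Console per the submitters' processing notes (no version stated there). That method subtracts background, equalises the arrays' distributions and summarises probes, so a shift of all genes cannot be seen and changes of dim probe sets are compressed. Values were used as deposited. Gene names came from the platform annotation, and the 9 member symbols were current in a GRCr8 gene table. A gene was read from its probe set of highest mean, and a mean log2 under 5 excluded it. Since this mean covers all 9 arrays, genes dim in vehicle could pass through CMS50, which favours rises in the list counts. A single limma model (version 3.58.1, R 4.3.3, lmFit and eBayes) held all 3 doses, with Benjamini-Hochberg adjustment over 10337 genes, or over 20826 probe sets in the fit of every probe set. The fit was tested on simulated data. The members, lists and named genes were chosen with earlier results of these data known. Named genes were taken from the largest called changes of each list, at most 4, and not all of these are printed. Other listed genes are given as values. Cdh11, Snai1, Jag1 and Hes1 were singled out after their values were seen. Figures used matplotlib 3.10.9. Precision is limited by having 3 rats a dose. The labels call the arrays of a dose biological replicates and give no batch.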

Additional observations from a re-analysis of the deposited data

How the results depend on the processing

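The members' results were recomputed under 19 alternatives. The count of members called in CMS50 minus vehicle stayed between 3 and 4 and in CMS50 minus CMS25 between 3 and 5, and it was 0 throughout in CMS25 minus vehicle. Over all genes, 3211 were called in CMS50 minus vehicle, and 1687 to 3546 when single arrays were left out. The lowest counts were 1687 without CMS50 replicate 2, 1711 without CMS50 replicate 1 and 1852 without vehicle replicate 2. In CMS50 minus CMS25, 3128 were called, and 1569 to 3518 when single arrays were left out, with 1569 without CMS50 replicate 2, 1737 without CMS50 replicate 1 and 2008 without CMS25 replicate 3. After cyclic loess scaling 58.8% of its calls were higher, against 68.8% as reported.

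Some uncalled changes turned their sign under alternatives, and the cause was not tested. In CMS25 minus vehicle, Cd44 was at -0.048 with averaged probe sets and ran from -0.17 to 0.12 over leave-outs, Cdh1 from -0.17 to 0.012, Krt18 from -0.15 to 0.30 and Krt19 from -0.44 to 0.30. In CMS50 minus CMS25, Cdh1 was at 0.00667 with averaged probe sets and ran from -0.088 to 0.086, and Krt19 ran from -0.57 to 0.14. In CMS50 minus vehicle, Cdh1 ran from -0.13 to 0.0011 and Krt19 from -0.75 to 0.16. Krt19 turned its sign in CMS50 minus vehicle and in CMS50 minus CMS25 only without CMS50 replicate 1.

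The labels state no pairing of rats by replicate number. Deviations of same-numbered arrays correlated from -0.18 to 0.26, and those of other pairs from -0.23 to 0.22. With 3 arrays per dose, these ranges cannot decide whether the numbers shared a batch. With the replicate number as a block, 2865 genes were called in CMS50 minus vehicle, 2857 in CMS50 minus CMS25 and 0 in CMS25 minus vehicle, with 3, 4 and 0 members. The log2 shift of Krt8 against Krt18 ran from 0.84 to 1.13 over its alternatives, which were chosen after seeing the data.

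Among the list counts of CMS50 minus vehicle, a minimum of 6 left 4 rises in 10 filament genes and 4 in 5 proliferation genes, since fewer genes were tested. With averaged probe sets, 4 of 13 adherens junction genes rose against 7 of 14, 1 desmosome gene against 2, and 1 CD44 partner fell against 0. Desmosome rises were also 1 with median centring and with the replicate block. Endothelial falls were 5 with array weights or only the 2 groups compared, against 3. In the latter fit 1 of the other keratins fell, and with no minimum 1 EMT (epithelial-mesenchymal transition) gene fell, against 0.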
